A study of Rattus norvegicus with 8 samples.

Results

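The inflammasome and lytic cell death genes were 10 of the 18090 genes in the deposited expression table, taken by symbol: Nlrp3, Aim2, Nlrc4, Pycard, Casp1, Casp4, Gsdmd, Ripk3, Mlkl and Ninj1. All 10 were found. RNA was measured by polyA RNA-seq in the abdominal aorta of wild-type (WT) rats. For 4 samples filter paper with 10% iron chloride (FeCl3), whose contact damages a vessel from outside and brings on a thrombus, had been laid around the vessel for 5 min, and for 4 controls the paper carried 0.9% saline. The study compared FeCl3-induced thrombosis with the saline control; the samples of a group were biologically independent per the study's design text, and strain, sex, age and the time of harvest are not stated there or in the labels.

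An inflammasome is a cytosolic complex in which a sensor protein recruits an adaptor and activates an inflammatory caspase. The caspase matures the cytokines interleukin-1 beta and interleukin-18 and cuts gasdermin D, whose fragment forms pores in the plasma membrane, a form of cell death called pyroptosis. Necroptosis is a separate lytic death in which the kinase RIPK3 activates the membrane-damaging protein MLKL. In pyroptosis of mouse macrophages NINJ1 ruptures the membrane of the dying cell. Blood monocytes, macrophages and neutrophils are the best known sites of inflammasome assembly, and the parts of the machinery are made by vessel wall cells to different degrees.

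Values were FPKM, fragments scaled to gene length and to library size, so levels can be compared between genes per unit length. Each library held between 24304434 and 30283292 fragments, as recovered from the steps of the low FPKM values. Haemoglobin genes took 16.4% to 34.1% of the fragments after FeCl3 and 1.30% to 16.5% after saline, the last value being saline replicate 4. The summed level of 10 general leukocyte markers ran from 395 to 1180 FPKM after FeCl3 and from 14.9 to 500.0 FPKM after saline, lowest in saline replicate 1 and highest in saline replicate 4. In saline replicate 1 Cd68 and S100a8, markers of macrophages and neutrophils, were at 0 FPKM, while Acta2, smooth muscle actin, was at 10400 FPKM and Pecam1, an endothelial marker, at 4.58 FPKM. Saline replicates 1 and 4 therefore stood apart from the other controls in opposite directions. In such bulk samples fewer cells of a type and less RNA per cell cannot be told apart.

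Upstream sequences are shown for Casp1, Pycard and Aim2, the genes with the smallest p-values of the set below, and for Ninj1, whose level varied least. Among the RefSeq promoter windows used here, 7 of the 10 genes were found by symbol. Each sequence is the 250 bases before the annotated gene start in the rat build GRCr8, 5′ to 3′ on the gene's own strand. Capitals mark matches, on either strand, to AGGAAGT (the ETS core as bound by PU.1, a factor of myeloid cells), the interferon response element (GAAA, any 2 bases, GAAA) or GGGCGG (the GC box).
Casp1 (chr8:10872580-10872829, + strand): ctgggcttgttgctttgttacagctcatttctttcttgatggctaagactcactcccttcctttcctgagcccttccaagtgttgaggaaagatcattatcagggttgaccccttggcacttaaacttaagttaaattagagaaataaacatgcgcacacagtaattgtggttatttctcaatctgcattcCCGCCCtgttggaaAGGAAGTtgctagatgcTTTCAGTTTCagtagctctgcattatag
Pycard (chr1:192033420-192033669, - strand): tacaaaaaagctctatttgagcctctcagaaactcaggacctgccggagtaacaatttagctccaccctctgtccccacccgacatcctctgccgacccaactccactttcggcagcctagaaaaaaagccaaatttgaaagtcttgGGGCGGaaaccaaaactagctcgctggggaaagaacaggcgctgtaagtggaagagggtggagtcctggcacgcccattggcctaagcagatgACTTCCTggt
Aim2 (chr13:88398372-88398621, + strand): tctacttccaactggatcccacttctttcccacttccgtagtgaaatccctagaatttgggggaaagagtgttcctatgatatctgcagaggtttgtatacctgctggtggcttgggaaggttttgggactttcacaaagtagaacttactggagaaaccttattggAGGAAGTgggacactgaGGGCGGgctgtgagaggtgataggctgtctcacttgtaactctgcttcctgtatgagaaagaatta
Ninj1 (chr17:15668032-15668281, - strand): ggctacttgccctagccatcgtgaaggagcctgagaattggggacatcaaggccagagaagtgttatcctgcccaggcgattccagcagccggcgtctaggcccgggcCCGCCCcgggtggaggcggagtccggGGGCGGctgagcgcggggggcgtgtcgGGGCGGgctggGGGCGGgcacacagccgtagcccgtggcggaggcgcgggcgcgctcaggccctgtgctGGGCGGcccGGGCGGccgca

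The core AGGAAGT was found in Casp1, Pycard and Aim2, once each, and in none of Nlrp3, Ripk3, Mlkl and Ninj1, while 6.99% of the 27457 RefSeq promoter windows of this length held it. Casp1 alone of the 7 held the interferon response element, present in 3.29% of windows. Ninj1 held GGGCGG 6 times and Casp1, Pycard and Aim2 once each, against 32.4% of windows with at least 1 match. The NF-kB motif (GGGA, any 2 bases, TTCC), in 1.07% of windows, was in none of the 7, and the AP-1 motif TGANTCA, in 6.36% of windows, was in Ripk3 only. None of the marked matches overlap, and a match describes letters and not a bound site. In the RefSeq annotation of GRCr8, Casp1, Casp4 and Casp12 lie close together on the same chromosome, with other entries between them.

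Of the 10 genes Ninj1 was the most abundant in all 8 libraries, with a mean over all libraries of 46.5 FPKM. Pycard at 13.6, Casp1 at 12.9 and Casp4 at 12.8 FPKM followed, and these 3 lay well within each other's spread between libraries. Gsdmd had 6.32, Ripk3 3.89 and Mlkl 3.27 FPKM, and the sensors came last, with 0.704 FPKM for Nlrp3, 0.402 for Nlrc4 and 0.376 for Aim2. Ninj1 made up 40.8% ± 7.01 of the summed FPKM of the 10 genes after FeCl3 and 56.9% ± 18.2 after saline (n = 4 each, SD), and the saline libraries spanned 79.7% in replicate 1 to 37.8% in replicate 4. Casp1 and Casp4 together made up 28.9% ± 5.16 after FeCl3 and 18.8% ± 7.91 after saline (n = 4 each, SD).

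**Figure D1:**
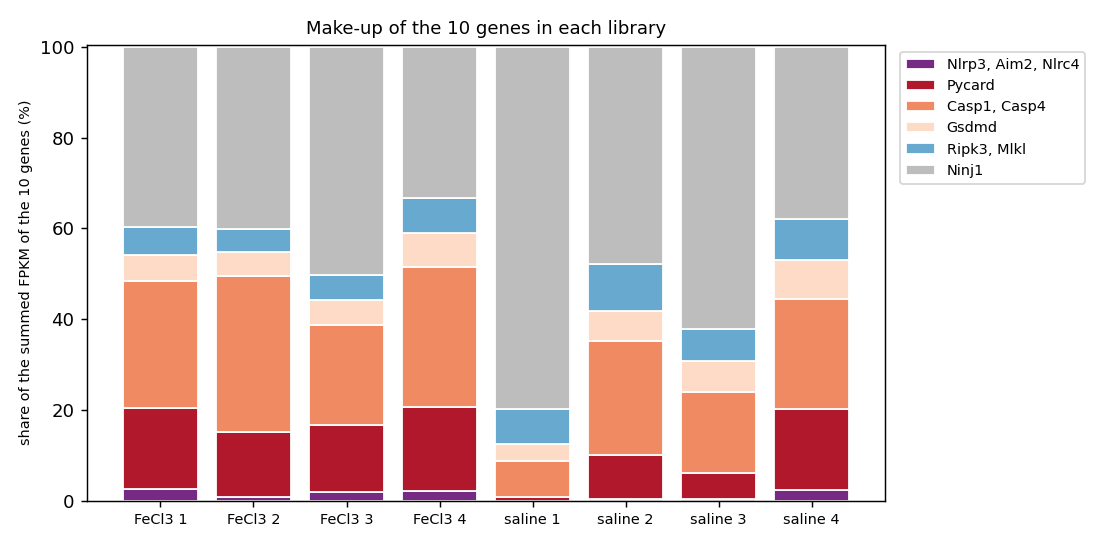
Share of the summed FPKM of the 10 genes (%, vertical axis) taken by each functional class in each library, FeCl3 replicates on the left and saline replicates on the right. Ninj1 takes 33.3% to 50.3% of the bar after FeCl3 and 37.8% to 79.7% after saline, and Pycard is barely visible in saline replicate 1, at 0.774%.

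No gene of the set passed the test. Genes with at least 1 FPKM in at least 4 of the 8 libraries were compared as log2(FPKM + 1) with limma, with Benjamini-Hochberg adjustment over all genes tested and a threshold of 0.05. Of the 10 genes 7 passed this filter on low values, and 0 of these 7 changed (smallest adjusted p in limma 0.28), the share over all 11921 genes tested being 0.0%. At an unadjusted p under 0.05 there were 2 of the 7, Casp1 and Pycard, with positive fold changes in limma, where 4.42% of all tested genes had such a p and a higher level after FeCl3 and 12.2% such a p and a lower level. Limma voom on the recovered fragments gave the same numbers, 0 and 2 of the 7. The count at an unadjusted p was 0 with TPM, library weights, a haemoglobin covariate or a pseudocount of 0.1. It was also 0 without FeCl3 replicate 1, 2 or 4 or without saline replicate 3, and 1 without saline replicate 1. With haemoglobin left out of the total, median-of-ratios or quantile scaling, or without FeCl3 replicate 3, it was 3. The log2 fold change was above 0 for 6 of the 7 genes against 29.8% of all tested genes, and its median was 0.34 against -0.25 over all tested genes.

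**Figure D2:**
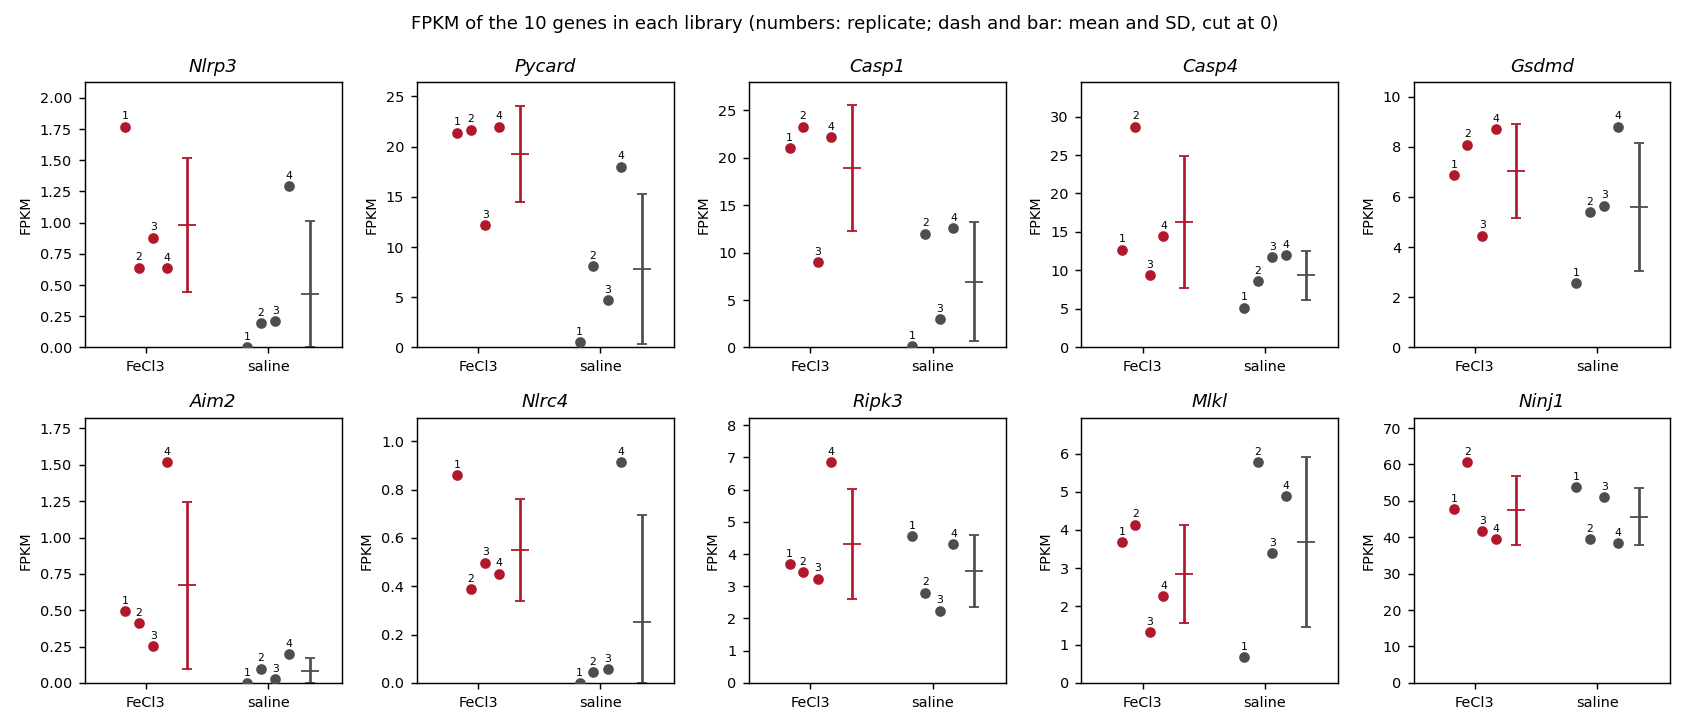
FPKM (vertical axes, each from 0) of the 10 genes in the 4 FeCl3 and 4 saline libraries; points are libraries labelled by replicate, dashes and bars are the mean and SD, cut at 0. Aim2 is the only gene whose 4 FeCl3 values, 0.252 to 1.52 FPKM, lie above all saline values, which reach 0.2 FPKM; the spread of Casp1, Pycard, Nlrp3 and Nlrc4 within saline covers most of their range.

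Among the sensors, Aim2, which binds cytosolic double-stranded DNA, was the only one whose groups did not overlap. Aim2 had 0.492, 0.413, 0.252 and 1.52 FPKM in FeCl3 replicates 1 to 4, against 0, 0.0988, 0.0267 and 0.2 FPKM in saline replicates 1 to 4. All FeCl3 libraries lay above all saline libraries, with FeCl3 replicate 4 well above the rest, and the highest control was saline replicate 4. These values rest on 73 to 454 fragments after FeCl3 and on 0 to 57 after saline. The recovered gene length of 11239 bases is the longest of the set, and 0 fragments in saline replicate 1 allow a level of up to 0.00881 FPKM by counting error (3 fragments). Aim2 lay under the filter; its difference of 0.57 in mean log2(FPKM + 1) had, in the exact two-sided permutation test, p = 0.0286, the smallest that 4 against 4 can give. Of the 10 genes, only Aim2 had groups without overlap in either direction. Among all 18090 genes, 0.962% lay higher without overlap after FeCl3. Among the 11921 tested genes, 1.06% lay higher and 8.75% lower without overlap. The 1 of 10 counts either direction, so both shares belong beside it, and no excess over them was tested. Fitted with limma without a filter, Aim2 had an adjusted p of 0.361 over 18090 genes, of which 3.44% had an unadjusted p under 0.05 and a higher level after FeCl3. Without FeCl3 replicate 4 the difference was 0.36. That library also held the most T and NK cell marker transcripts, a sum of 397 FPKM over 10 genes. The other FeCl3 libraries had 34.1 to 70.3 FPKM and the saline libraries 0.376 to 49.0 FPKM. FeCl3 replicate 4 was also highest in the leukocyte marker sum, 1180 FPKM, and the endothelial marker sum, 228 FPKM. Aim2 did not keep the T and NK order within FeCl3. Replicate 3, with 65.5 FPKM, had the lowest Aim2 of the group, 0.252 FPKM. Replicate 2, with 34.1 FPKM, had 0.413 FPKM. The part of these cells in the Aim2 values was not tested.

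Nlrp3, the sensor of potassium loss and other cell damage, had 1.77, 0.639, 0.88 and 0.633 FPKM in FeCl3 replicates 1 to 4, against 0.0059, 0.198, 0.214 and 1.29 FPKM in saline replicates 1 to 4. Saline replicate 4 lay within the FeCl3 range, and the other saline libraries lay below it. The saline values differed 219-fold between the highest and the lowest library, the lowest resting on 1 fragment, for which the 95% Poisson interval runs from 0.000149 to 0.0328 FPKM; such intervals cover counting error only. Nlrc4, which responds with NAIP proteins to bacterial flagellin and secretion systems, had 0.861, 0.387, 0.498 and 0.452 FPKM after FeCl3, against 0, 0.0459, 0.0558 and 0.915 FPKM after saline. Saline replicate 4 had the highest Nlrc4 of all libraries, and the other controls held 0 to 6 fragments. The differences in mean log2(FPKM + 1) were 0.51 for Nlrp3 and 0.35 for Nlrc4, and each had, in the exact two-sided permutation test, p = 0.171. Without saline replicate 4 they were 0.77 and 0.57. Fitted without a filter, their limma adjusted p was 0.494 and 0.531. FeCl3 replicate 1 and saline replicate 4, the libraries highest in both sensors, also had the highest sums over 12 monocyte and macrophage markers within their groups, 832 and 544 FPKM. The other libraries had 226 to 747 FPKM after FeCl3 and 9.83 to 117 FPKM after saline. The sensors did not keep this order within FeCl3. Replicate 2, with 747 FPKM, had 0.639 FPKM of Nlrp3 and the lowest Nlrc4, 0.387 FPKM. Replicate 3, with 226 FPKM, had 0.88 and 0.498 FPKM. The part of these cells in the sensor values was not tested.

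Pycard encodes ASC, the adaptor that links NLRP3 and AIM2 to caspase-1. It had 21.4, 21.7, 12.2 and 22.0 FPKM in FeCl3 replicates 1 to 4, against 0.522, 8.08, 4.69 and 18.0 FPKM in saline replicates 1 to 4. Of the FeCl3 libraries 3 lay above all controls, while FeCl3 replicate 3 lay below saline replicate 4. The means were 19.3 ± 4.78 FPKM after FeCl3 and 7.83 ± 7.46 FPKM after saline (n = 4 each, SD), for which limma gave a log2 fold change of 1.67, its SE being 0.68 and its adjusted p 0.28. This value was 1.00 without saline replicate 1 and 0.17 with haemoglobin content as a covariate, which itself differs between the groups.

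Casp1, the caspase that matures interleukin-1 beta and cuts gasdermin D, was also lowest in saline replicate 1. It had 21.0, 23.3, 8.97 and 22.2 FPKM in FeCl3 replicates 1 to 4, against 0.174, 12.0, 2.96 and 12.6 FPKM in saline replicates 1 to 4. FeCl3 replicate 3 lay within the saline range, and saline replicate 1 held 7 fragments of this gene. The means were 18.9 ± 6.67 FPKM after FeCl3 and 6.93 ± 6.30 FPKM after saline (n = 4 each, SD), a log2 fold change of 1.81 (SE 0.76) with a 95% interval of 0.09 to 3.53 (limma adjusted p = 0.287). This value was 1.08 without saline replicate 1 and 0.74 with the haemoglobin covariate. Pycard was at 0.933 to 1.36 times the FPKM of Casp1 after FeCl3 and 0.672 to 3.00 times after saline.

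Casp4 encodes the rat counterpart of mouse caspase-11, which binds bacterial lipopolysaccharide in the cytosol and cuts gasdermin D without an inflammasome sensor. It had 12.7, 28.7, 9.36 and 14.5 FPKM in FeCl3 replicates 1 to 4, against 5.17, 8.64, 11.7 and 12.0 FPKM in saline replicates 1 to 4. The groups overlapped, with FeCl3 replicate 2 far above all others. In limma its log2 fold change was 0.69 (SE 0.38; adjusted p in limma 0.375), 0.39 without FeCl3 replicate 2 and 0.46 without saline replicate 1. Casp4 kept 5.17 FPKM in saline replicate 1, where Casp1 had 0.174 FPKM, so that the ratio of Casp1 to Casp4 was 0.0336 there, against 0.253 to 1.39 in the other saline libraries and 0.811 to 1.65 after FeCl3. The log2 ratio, on the FPKM + 1 scale, averaged 0.23 after FeCl3 and -0.89 after saline, with an exact two-sided permutation p of 0.229.

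Gsdmd, the pore-forming substrate of these caspases, had 6.88, 8.09, 4.46 and 8.71 FPKM in FeCl3 replicates 1 to 4, against 2.57, 5.40, 5.66 and 8.81 FPKM in saline replicates 1 to 4. The highest library was a control, saline replicate 4, and the groups overlapped. For Gsdmd the log2 fold change was 0.34 (SE 0.34; adjusted p in limma 0.619; 95% interval -0.43 to 1.10) and 0.07 without saline replicate 1.

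Neither necroptosis gene passed the test. Ripk3, the kinase, had 3.68, 3.43, 3.24 and 6.86 FPKM in FeCl3 replicates 1 to 4, against 4.55, 2.80, 2.24 and 4.30 FPKM in saline replicates 1 to 4. Only FeCl3 replicate 4 lay outside the saline range, and saline replicate 1 had the highest Ripk3 of the controls, the library lowest in Pycard and Casp1. The log2 fold change was 0.23 (SE 0.29; adjusted p in limma 0.688) and 0.03 without FeCl3 replicate 4. Mlkl, its substrate, had 3.68, 4.14, 1.33 and 2.27 FPKM after FeCl3, against 0.669, 5.78, 3.39 and 4.88 FPKM after saline. The control libraries held both the lowest and the highest Mlkl. For Mlkl the log2 fold change was -0.17 (SE 0.47; adjusted p in limma 0.871), and -0.60 without saline replicate 1. Ripk3 was 0.83 to 3.02 times the FPKM of Mlkl after FeCl3 and 0.485 to 6.80 times after saline, and the difference of the log2 ratio on the FPKM + 1 scale had, in the exact two-sided permutation test, p = 0.629.

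Ninj1, which ruptures the membrane late in pyroptosis and also acts in cell adhesion, had 47.8, 60.7, 41.6 and 39.6 FPKM in FeCl3 replicates 1 to 4, against 53.8, 39.4, 51.1 and 38.3 FPKM in saline replicates 1 to 4. The groups overlapped, and the highest library in each group was at most 1.53 times the lowest. The log2 fold change was 0.05 (adjusted p in limma 0.921), with a 95% interval of -0.46 to 0.56, which for this gene is narrower than for any of the other 6 tested genes. Saline replicate 1, the library with the least Pycard and Casp1, had the most Ninj1 of the controls.

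**Figure D3:**
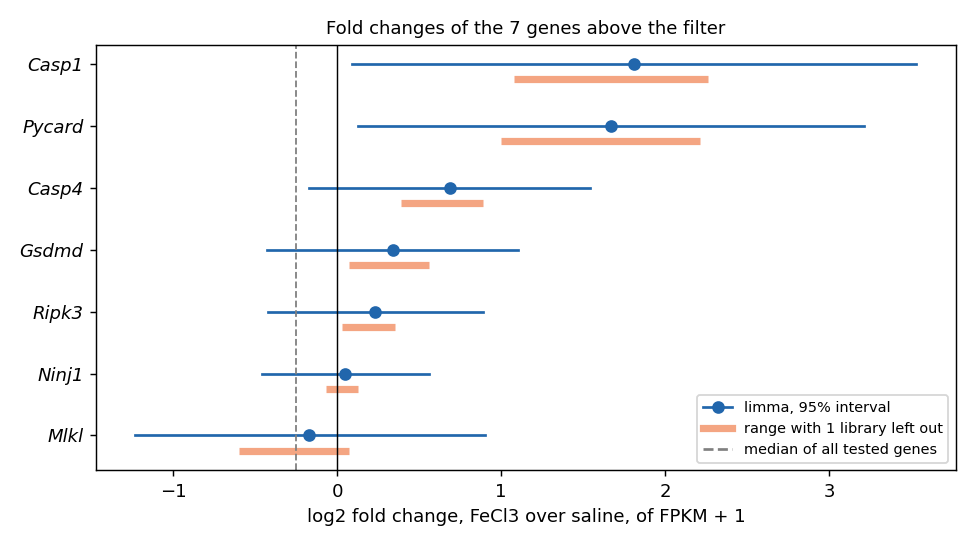
Log2 fold change of FPKM + 1, FeCl3 over saline (horizontal axis), of the 7 genes above the filter; points and thin lines are limma estimates with 95% intervals, thick bars the range with 1 library left out, and the dashed line the median of all tested genes at -0.25. Casp1 at 1.81 and Pycard at 1.67 have the widest leave-one-out ranges, 1.08 to 2.26 and 1.00 to 2.21, and Ninj1 stays between -0.07 and 0.13.

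Scaling moved these fold changes. With FPKM rescaled to TPM (shares of the summed FPKM, of which haemoglobin genes take much) the median over all tested genes was -0.90, and the values were 1.38 for Casp1, 1.16 for Pycard, 0.01 for Casp4, -0.29 for Gsdmd, -0.37 for Ripk3, -0.68 for Ninj1 and -0.72 for Mlkl. With haemoglobin genes left out of the total, or with median-of-ratios or quantile scaling, that median was 0.01, -0.05 and -0.06, and Mlkl was at 0.05, 0.03 and -0.06. Under the TPM scaling 27.6% of all tested genes passed limma and 0 of the 7 genes did. Without saline replicate 4, where 1.34% of all tested genes passed, 0 of the 7 passed.

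The levels were next set beside leukocyte content. The mean log2(FPKM + 1) of the 10 leukocyte markers was 5.68, 4.89, 5.32 and 6.66 in FeCl3 replicates 1 to 4, against 0.79, 2.86, 2.41 and 5.25 in saline replicates 1 to 4 (exact two-sided permutation p = 0.0571). All 10 markers had a positive log2 fold change in limma, with a median of 2.80 and 10 of 10 at an unadjusted p under 0.05. Of all tested genes 29.8% had a positive fold change, and 4.42% such a p and a higher level. Ptprc (CD45), the general leukocyte surface phosphatase, had 27.7, 15.3, 26.0 and 129 FPKM after FeCl3, against 0.293, 4.85, 3.02 and 33.3 FPKM after saline. Subtracted library by library, this marker mean left Casp1 at a mean of -1.41 after FeCl3 and -0.41 after saline, a difference of -1.0. For Pycard the means were -1.33 after FeCl3 and -0.19 after saline, a difference of -1.13, and for Casp4, Gsdmd, Ripk3, Mlkl and Ninj1 the difference ran from -2.12 to -2.97. Each is the gene's own difference minus the 2.81 by which the marker mean was higher after FeCl3, so a gene at the same level in both groups would stand at -2.81 and the negative sign says nothing about the gene itself. Casp1 and Pycard stood farthest above that value, and Ripk3, Mlkl and Ninj1 close to it. Saline replicate 4, whose leukocyte level lay within the FeCl3 range, overlapped with the FeCl3 libraries for all 7. The sum over 10 neutrophil markers was 60.4 to 153 FPKM after FeCl3 and 0.477 to 105 FPKM after saline, in the controls lowest in saline replicate 1 and highest in saline replicate 4, as were Pycard and Casp1. Saline replicate 2, with a neutrophil sum of 52.9 FPKM, nearly equalled saline replicate 4 in Casp1, at 12.0 against 12.6 FPKM. The sum over 7 endothelial markers was 25.4, 218, 113 and 209 FPKM in saline replicates 1 to 4 and 133 to 228 FPKM after FeCl3. The part of leukocyte, endothelial or other cell content in the levels of Casp1 and Pycard was not tested.

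**Figure D4:**
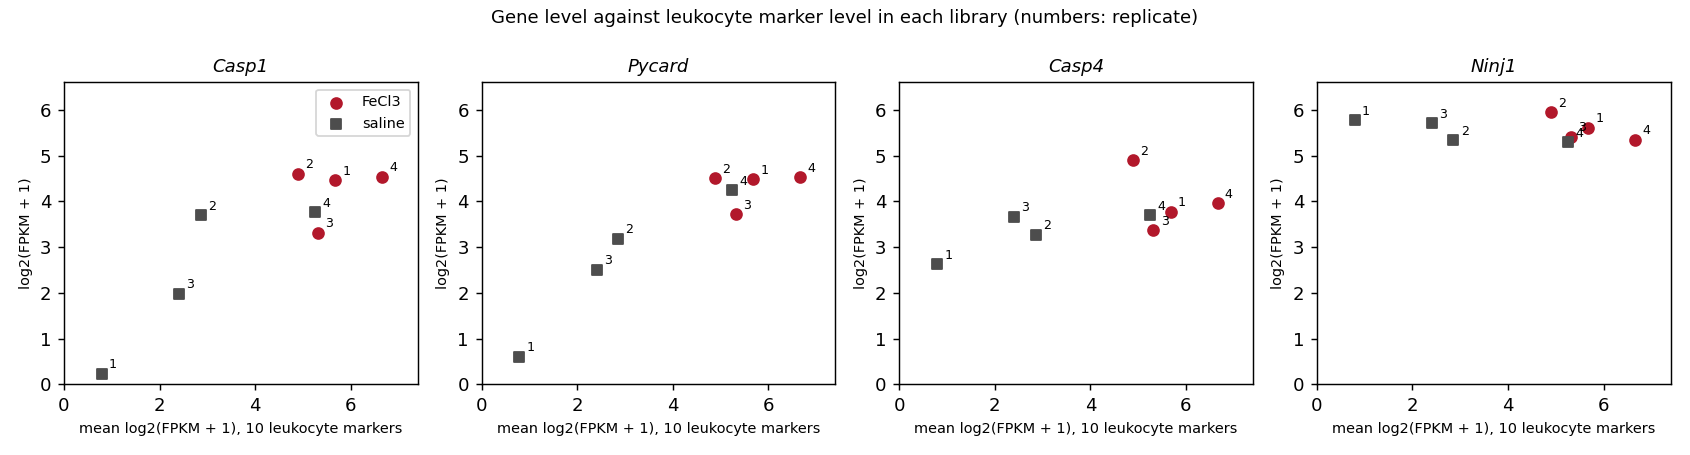
Level of Casp1, Pycard, Casp4 and Ninj1 as log2(FPKM + 1) (vertical axes) against the mean log2(FPKM + 1) of 10 leukocyte markers (horizontal axes) in each library, FeCl3 as circles and saline as squares, labelled by replicate. Casp1 and Pycard are lowest in saline replicate 1, where the leukocyte mean is 0.79, and Ninj1 is level across the axis.

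Over the 8 libraries, the tested gene outside the set whose log2(FPKM + 1) was most like that of Casp1 was Ly6c, described as Ly6-C antigen (Pearson r = 0.987, n = 8 libraries). For Pycard it was Gmfg, glia maturation factor gamma, an actin regulator of white cells (r = 0.986), for Gsdmd Oas1a, an interferon-induced 2'-5' oligoadenylate synthetase (r = 0.988), for Mlkl D2hgdh (r = 0.987), for Ninj1 Tm2d3 (r = 0.948) and for Ripk3 Rab3ip (r = 0.933). For Casp4 it was LOC100911813 (r = 0.971), which has no description in the table. Each is the highest among the tested genes. All genes were read in the same 8 libraries, which differ in depth and cell content, so these values are descriptions without a test.

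Related genes were read from 7 lists of 82 genes together, of which 61 were tested. None passed in limma. Of the 61, 31 had a fold change above 0, with a median of 0.01. Of all tested genes 29.8% were above 0, with a median of -0.25, and the counts below stand against that share. Among the cytokines, their receptors and inhibitors 3 of 4 tested genes were above 0. The most abundant was Il1b, the transcript of interleukin-1 beta, whose maturation by the caspase RNA levels do not show. Il1b averaged 12.9 ± 4.86 FPKM after FeCl3 and 4.43 ± 5.85 FPKM after saline (n = 4 each, SD), with an adjusted p in limma of 0.258. The groups overlapped. Saline replicate 4, at 13.1 FPKM, lay above FeCl3 replicates 2 to 4, while saline replicates 1 to 3 lay below all FeCl3 libraries. Guanylate binding proteins and other regulators of lipopolysaccharide sensing were above 0 in 9 of 9 tested genes (median 0.39), and Serpinb9, an inhibitor of granzyme B and its most abundant gene, averaged 18.7 ± 5.44 FPKM after FeCl3 and 12.8 ± 6.07 FPKM after saline (n = 4 each, SD), with an adjusted p in limma of 0.424. Other sensors and cofactors were above 0 in 4 of 7 tested genes, and the most abundant of them, Txnip, a thioredoxin-binding protein, was at 0.04 ± 0.67 SE (limma adjusted p = 0.979). Other gasdermins and caspases were above 0 in 5 of 7, and the most abundant of them, Casp12, was at 0.26 ± 0.38 SE (limma adjusted p = 0.738). Ninj2 and damage-associated proteins were above 0 in 6 of 6, of which 3 had an unadjusted p under 0.05 in limma, where 4.42% of all tested genes had such a p and a higher level. The most abundant gene of that list was Anxa1 (annexin A1) with 0.31 ± 0.39 SE (limma adjusted p = 0.689). The highest fold changes in that list were those of S100a8 (2.69) and S100a9 (2.61), which also stand in the neutrophil marker list. S100a8 had 63.8, 69.6, 28.7 and 36.3 FPKM in FeCl3 replicates 1 to 4, against 0, 4.58, 9.37 and 49.3 FPKM in saline replicates 1 to 4.

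Necroptosis and membrane repair genes were mostly below 0, as were most tested genes. Of the other necroptosis genes 2 of 14 tested were above 0 (median -0.26), and of the ESCRT-III genes, whose products shed damaged membrane and limit gasdermin and MLKL pores, 2 of 14 (median -0.22), both medians close to the -0.25 of all tested genes. Values did not overlap for Cflar, Pdcd6ip and Vps4a, each lower after FeCl3, where 8.75% of all tested genes lay lower and 1.06% higher without overlap. Cflar, the caspase-8 inhibitor cFLIP, had 4.51, 5.73, 5.17 and 8.04 FPKM in FeCl3 replicates 1 to 4, against 9.34, 10.8, 8.79 and 8.80 FPKM in saline replicates 1 to 4 (limma adjusted p = 0.258). Pdcd6ip, the ESCRT adaptor ALIX, had 15.1, 14.6, 12.0 and 18.0 FPKM after FeCl3, against 40.6, 32.7, 27.8 and 21.0 FPKM after saline (limma adjusted p = 0.245). Vps4a, the ATPase that takes ESCRT-III apart, averaged 27.1 ± 5.16 FPKM after FeCl3 and 42.4 ± 8.11 FPKM after saline (n = 4 each, SD), with an adjusted p in limma of 0.258.

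**Figure D5:**
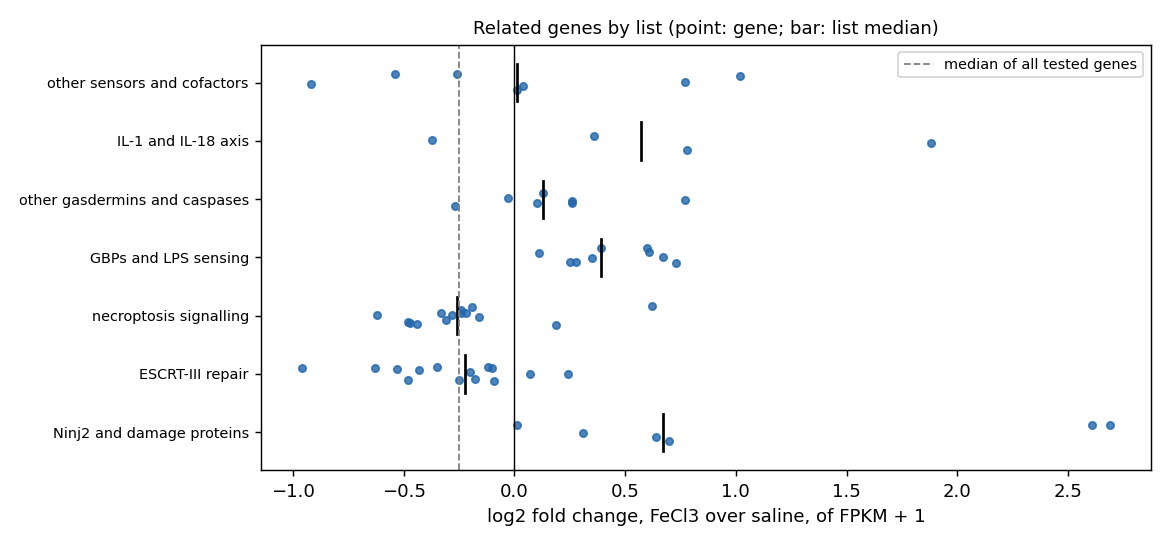
Log2 fold change of FPKM + 1, FeCl3 over saline (horizontal axis), of the tested genes of 7 related lists; points are genes, black bars list medians and the dashed line the median of all tested genes at -0.25. The necroptosis and ESCRT-III lists, with medians of -0.26 and -0.22, sit at that line, and the list of Ninj2 and damage-associated proteins has the highest median, 0.67.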

How the data were processed

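The authors deposited 1 FPKM value per gene and library; per the submitters' processing notes fastp, HISAT2, HTSeq and the build mRatBN7.2 were used, with versions, annotation and gene lengths not given in the sources used here. Per the labels RNA was isolated with the mirVana kit, libraries were made with the VAHTS Universal V6 kit, and all libraries belong to batch 1. Columns were matched to samples by title, and replicates were numbered within a group. Library totals and gene lengths were recovered from the FPKM steps: 100% of 18090 genes gave whole fragments within 0.02, and the fragments summed to at least 99.8% of each total after the length of 1 gene, Hbb, was doubled. At most 0.388% of genes with over 20 fragments in both libraries had equal numbers in any of 28 library pairs.

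The test was limma 3.58.1 in R 4.3.3, with a trend and two-sided, on log2(FPKM + 1) of 11921 genes. This scale understates the change of low genes. Genes under the filter and ratios were compared by exact permutation. FPKM are not counts, so voom on fragments served as an alternative only. The members and lists were chosen with earlier results of these data known. Named from each related list were genes past the threshold, else up to 3 tested genes without overlap, else the most abundant. RefSeq sequences are from GRCr8 and were matched by symbol. Methods were tested on simulated data in which all libraries shared the same mean profile apart from set changes. The simulated libraries lacked the differences in blood content seen between the libraries here. Figures used matplotlib 3.10.9.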

Additional observations from a re-analysis of the deposited data

Results flagged for a closer look

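Of 20 groups of 4 libraries (10 genes, each after FeCl3 and after saline), 5 held a library whose gap to the nearest of the others exceeded, as a share of the group's range, Dixon's 95% critical value; chance flags about 1 in 20 groups, and genes that share a library are not independent. Pycard in FeCl3 replicate 3 (12.2 FPKM) and Casp1 in FeCl3 replicate 3 (8.97 FPKM) lay far below the other FeCl3 libraries. Ripk3 in FeCl3 replicate 4 (6.86 FPKM) lay far above them. Nlrp3 in saline replicate 4 (1.29 FPKM) and Nlrc4 in saline replicate 4 (0.915 FPKM) lay far above the other controls.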

How the results depend on the processing

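With limma, 0 of the 7 tested genes passed under any of the 21 alternatives. Over all genes the count was 0 in 18 of them and 3288 with FPKM rescaled to TPM, 51 without saline replicates 1 and 4 together, and 0 to 160 with 1 library left out, 160 without saline replicate 4. Casp1, Pycard and Casp4 kept a positive fold change throughout (0.74 to 2.76, 0.17 to 2.24 and 0.01 to 0.98). Other signs turned: Gsdmd -0.29 and Ripk3 -0.37 with TPM, and -0.20 and -0.04 with the haemoglobin covariate; Ninj1 -0.68 with TPM and -0.07 to 0.13 with a library left out, lowest without FeCl3 replicate 2; Mlkl 0.05 with haemoglobin left out of the total, 0.03 with median-of-ratios scaling and -0.60 to 0.07 with a library left out. The cause was not tested. Differences of Nlrp3, Aim2 and Nlrc4 stayed positive under the 14 alternatives that give a value, from 0.34 to 1.54, 0.36 to 1.96 and 0.26 to 1.52, the highest with a pseudocount of 0.1. Set against the leukocyte marker mean, the differences with a library left out ran from -3.06 to -2.06 for Gsdmd, -3.29 to -1.78 for Ripk3, -3.61 to -2.58 for Mlkl and -3.64 to -1.99 for Ninj1, each lowest without saline replicate 4. There these 4 passed the exact permutation test (p = 0.0286), but the marker mean itself then no longer overlapped between the groups and their own fold changes were 0.56, 0.33, 0.00 and -0.03, so that p restates the markers. No paired analysis was made because the labels give no pairing of FeCl3 with saline samples. The sensors' low fragment numbers limit what can be seen of them.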

Other observations

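The annotation columns of the deposited table, whose classes were picked after the table was seen, place 8 of the 10 genes in the KEGG pathway NOD-like receptor signaling and 5 in Necroptosis, and Ninj1 in neither. Over the whole of these classes, 53 of 130 tested genes of the first and 43 of 115 of the second had a log2 fold change above 0, with medians of -0.11 and -0.09, and 0 of either passed in limma. Of the genes under the term pyroptosis 9 of 12 tested were above 0 (median 0.53), and of those under necroptotic process 4 of 17 (median -0.33). Over all 11921 tested genes 29.8% were above 0, with a median of -0.25, so the negative medians of the 2 KEGG classes lay above the median of all tested genes.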
